A study of Rattus norvegicus with 15 samples.

Results

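RNA from dorsal CA1 of trained rats was compared between 5 libraries labelled Rnf20 siRNA and 5 libraries labelled scrambled siRNA, 10 of the 15 libraries of the series. The members are the samples of those 2 groups, chosen by the group names of the count table, and the comparison ran across all genes. The tissue came from wild-type Sprague-Dawley males, 8 to 9 weeks of age, that received Accell siRNA by stereotaxic injection into the CA1 area of dorsal hippocampus. Accell siRNA is chemically modified so that cells take it up without a carrier. After 5 days all 10 of these samples went through contextual fear conditioning, in which an animal learns that a place predicts a shock. One group had the siRNA against Rnf20 (replicates 4, 8, 14, 18 and 20) and the other a scrambled control sequence (replicates 5, 6, 10, 15 and 16). The remaining 5 libraries, from naive animals with scrambled siRNA, entered the fit only to estimate the spread and are given as ranges. A naive group with Rnf20 siRNA is not among the samples, so the comparison holds within trained tissue only. The tissue held all brain cell types, so fewer cells of a type and less RNA per cell cannot be told apart. The labels do not say that each library is its own animal, so a p-value here reflects spread among these samples, which may be technical in part. Values listed one after another follow the replicate order given here, and CPM is the count scaled to a common library size after TMM normalisation.

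Rnf20 and its partner Rnf40 form the RING-type E3 ligase that attaches a single ubiquitin to histone H2B during transcription. The PAF1 complex, which travels with RNA polymerase II, recruits the ligase, and deubiquitinases of the SAGA module remove the mark. H2B monoubiquitination promotes methylation of H3K4 and H3K79, marks of transcribed genes, and histone methylation in the hippocampus is known to change as contextual fear memories form. The comparison asks which transcripts of trained CA1 differ when an siRNA against the ligase was given beforehand.

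Total counts were 15342480 to 20644425 in the scrambled trained libraries and 12537250 to 18458527 in the labelled ones. Some libraries stood apart within both groups. The first component of the 10 trained libraries held 45.3% of the variance, with scrambled replicates 10 and 15 and labelled replicate 18 at one end (50.9, 36.6 and 41.3) and labelled replicate 14 at the other (-53.0). Choroid plexus markers, from the secretory tissue of the ventricle beside the hippocampus, had a score (mean log2 CPM of the list) of -0.32 and 0.51 in scrambled replicates 5 and 16 and 1.13 in labelled replicate 20, and of 3.60 to 5.98 in the other 7. Microglia markers had scores of 5.60 to 6.43 in the scrambled group and 5.13 to 6.41 in the labelled group. Results resting on these libraries are therefore also given without them or with the microglia or choroid plexus score as a covariate in the fit. Pan-neuronal markers were present throughout (scores 7.02 to 7.86), as were CA1 markers (4.37 to 6.35), with the lowest CA1 score in scrambled replicate 10.

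Rnf20 mRNA was not detectably lower in the libraries labelled Rnf20 siRNA. The scrambled trained libraries held 46.6, 48.5, 36.4, 46.2 and 38.5 CPM, and the labelled ones 44.6, 42.5, 42.8, 38.3 and 41.9 CPM. All 5 labelled values lay inside the scrambled range, and naive libraries held 39.1 to 44.7 CPM. The means were 43.2 ± 5.39 and 42.0 ± 2.32 CPM (SD, n = 5 each). The log2 fold change, labelled minus scrambled, was -0.04 (SE 0.08, edgeR adjusted p = 0.945), and an exact permutation test (two-sided, 252 divisions of the 10 libraries) gave p = 0.738, where 0.00794 is the smallest possible. The 95% interval covers changes from -13.9% to 9.73%, and between 514 and 1011 reads per library stood behind these values. Since the transcript does not follow the label, the group is called the labelled group or the libraries labelled Rnf20 siRNA, and no direction below is a direction of measured Rnf20 loss. RNF20 protein and H2B ubiquitination were not analysed here.

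The other parts of the H2B-ubiquitinating machinery were also close to equal. Rnf40, the partner subunit, held 43.0, 43.5, 43.1, 42.3 and 39.0 CPM under scrambled siRNA and 43.5, 40.7, 39.3, 43.9 and 45.1 CPM under the label (log2 fold change 0.01, SE 0.06; exact permutation p = 0.825, two-sided). The ranges overlapped almost fully. The ubiquitin-conjugating enzyme Ube2a, which works with the ligase, was at 57.6 ± 2.78 against 54.4 ± 1.10 CPM (-0.08, SE 0.06), and Ube2e1, another conjugating enzyme, at 67.5 ± 3.83 against 62.7 ± 5.46 CPM (-0.11, SE 0.07). Wac, an adaptor that brings the ligase to RNA polymerase II, had a fold change of 0.03 (SE 0.09). Among PAF1 complex subunits, fold changes were -0.08 for Paf1, -0.05 for Ctr9, 0.06 for Leo1, -0.05 for Cdc73, 0.09 for Rtf1 and -0.06 for Wdr61, each with an SE of 0.07 to 0.12. In all, 4 of the 11 writer genes tested had a fold change above 0, against 50.7% of all genes, and 0 had an unadjusted edgeR p under 0.05. The list median was -0.05 where the median of all genes was 0.00.

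**Figure D1:**
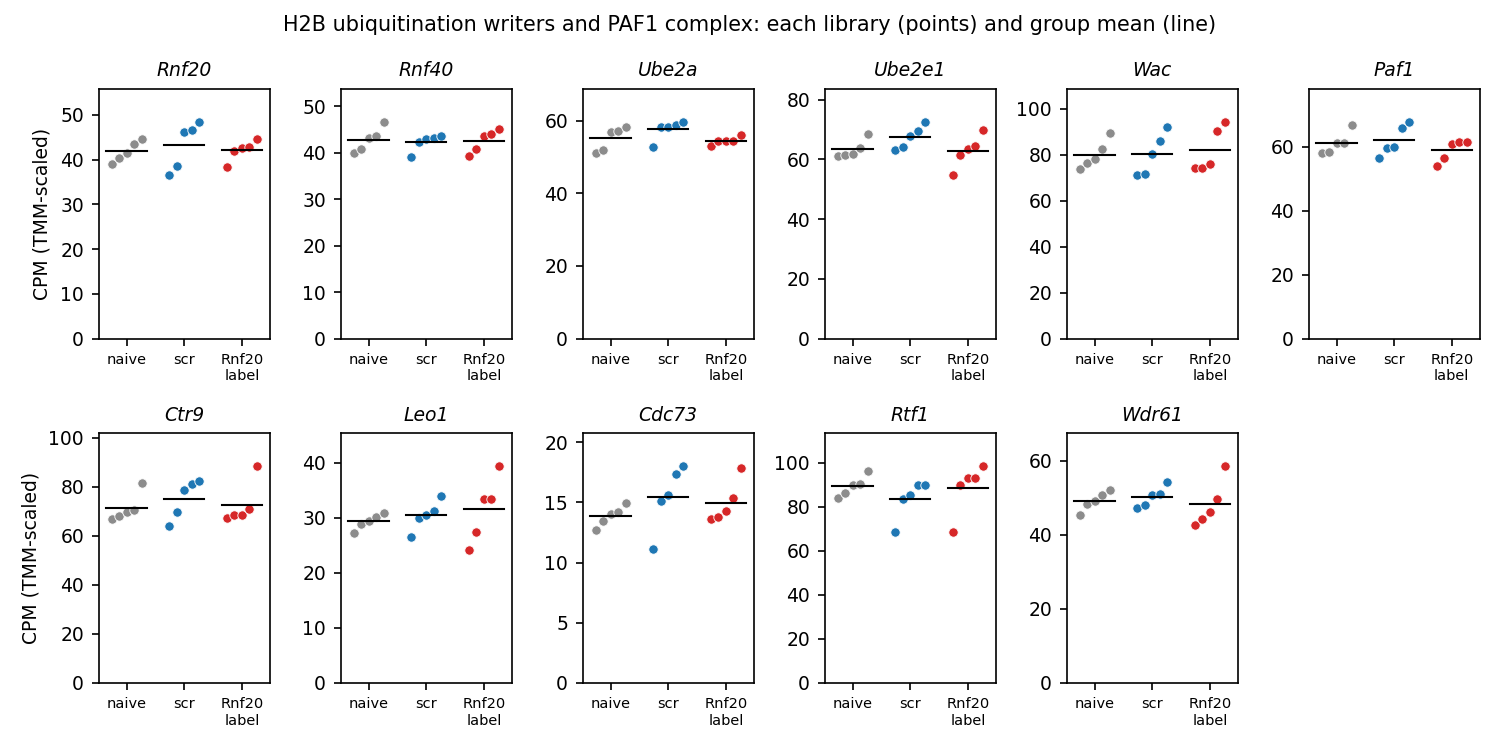
CPM of the 11 tested genes of the H2B ubiquitination machinery in each of the 15 libraries, 1 panel per gene, with points for libraries and a line for the group mean of 5. In the Rnf20 panel the labelled libraries (38.3 to 44.6 CPM) sit inside the scrambled trained range (36.4 to 48.5 CPM).

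Across the transcriptome no gene passed the threshold. Of 14880 genes tested with edgeR, 0 were higher and 0 lower at an adjusted p under 0.05 (0%), and the smallest adjusted p was 0.832. At an unadjusted p under 0.05 there were 835 genes (5.61% of those tested), 392 with a higher mean under the label (2.63%) and 443 with a lower one (2.98%). DESeq2 called 1 gene, Pkd1, higher (0.00456% of the genes it tested) and had 1058 genes at an unadjusted p under 0.05 (4.83%). limma-voom called 0, with 899 at an unadjusted p under 0.05. All 5 labelled libraries lay above all 5 scrambled ones for 59 genes (0.397%) and below them for 39 (0.262%). Without ties, 1 of the 252 divisions of the 10 libraries into 5 and 5 gives each of these orders. Genes named below by p were picked on these same values, so separate groups add no support to them. Per-gene precision was moderate, with a median SE of 0.14 on the log2 scale. For 86.2% of genes the 95% interval excluded a 2-fold difference in either direction, and for 67.3% a 1.5-fold difference. Among the 9937 genes with a mean of at least 10 CPM these shares were 96.5% and 86.6%. The unadjusted counts moved with the fit. Higher and lower genes at unadjusted p under 0.05 numbered 280 and 246 in the fit of the 10 trained libraries alone. They numbered 368 and 288 with the microglia covariate, and 605 and 757 with the choroid plexus covariate. Without the 4 libraries at the ends of component 1 they numbered 629 and 417. Without the 3 libraries lowest in choroid plexus markers they numbered 501 and 667. Single libraries were also left out in replicate order. Higher genes then numbered 626, 555, 543, 324 and 304 for the scrambled libraries and 259, 396, 457, 739 and 311 for the labelled ones. Lower genes numbered 859, 486, 280, 169 and 437, and 319, 368, 386, 1273 and 231. List counts of a refit given below are to be read against these counts over all genes in the same fit. Because no gene passed, the genes below are given by their values. The unadjusted edgeR p serves to pick and order them and calls none. Every gene with an unadjusted p under 0.05 had the same edgeR adjusted p of 0.832, which therefore stands for each gene given at that level below. Genes named only as list members can lie above that level. Examples are Hspa2, Alas2 and Rora, with unadjusted edgeR p of 0.0522, 0.0572 and 0.264.

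**Figure D2:**
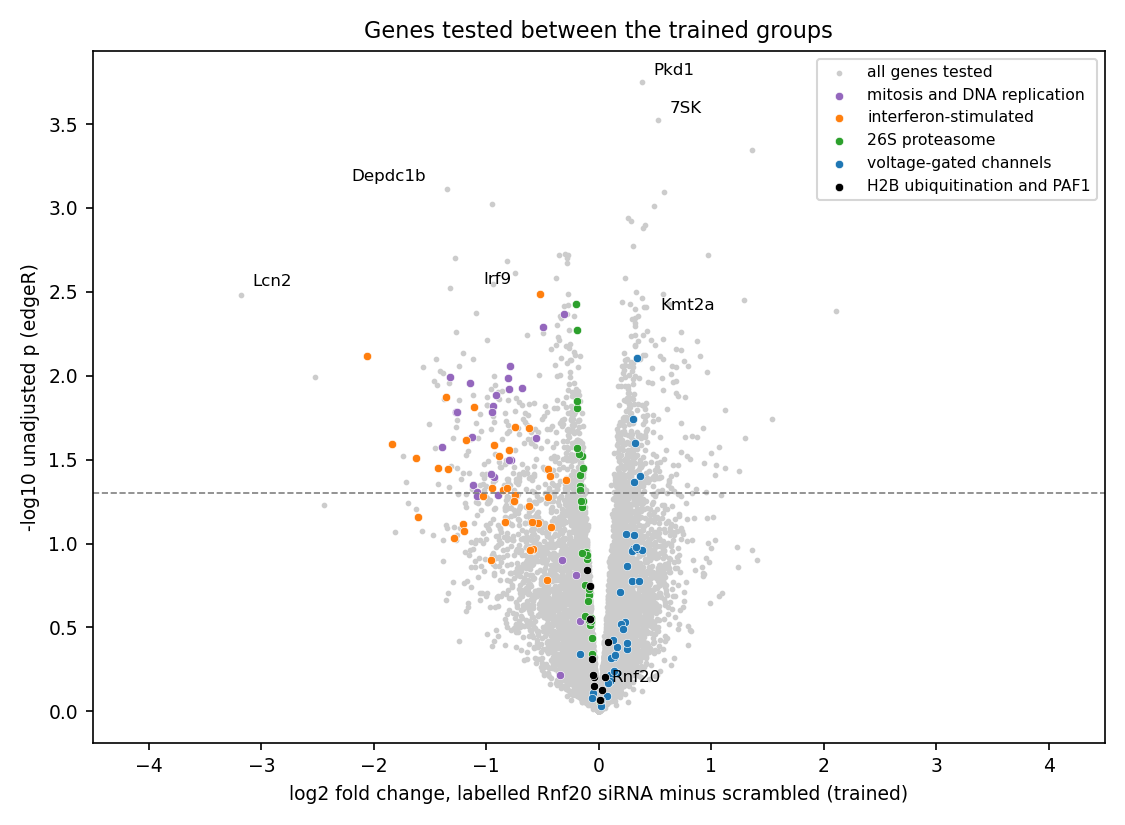
Each point is 1 of 14880 genes, with the log2 fold change (labelled Rnf20 siRNA minus scrambled, trained) on the x axis and -log10 of the unadjusted edgeR p on the y axis; the dashed line marks an unadjusted p of 0.05. Mitosis genes and interferon-stimulated genes lie to the left of 0, proteasome subunits form a narrow group just left of 0, and Rnf20 lies near the origin.

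Among genes with a higher mean under the label, Pkd1 had the smallest p. It encodes polycystin-1, a large membrane protein. Scrambled libraries held 143, 143, 128, 127 and 123 CPM, and labelled ones 173, 166, 163, 164 and 203 CPM. All labelled values lay above all scrambled ones, and labelled replicate 20 was the highest (log2 fold change 0.39, SE 0.08). DESeq2 gave it an adjusted p of 0.0124, edgeR 0.832 and limma-voom 0.766. The noncoding RNA 7SK, which holds the elongation kinase P-TEFb inactive, came next with 13.8, 10.7, 12.3, 9.96 and 12.9 CPM against 16.9, 14.9, 16.2, 17.9 and 20.1 CPM. Its groups did not overlap either (0.53, SE 0.11), but 7SK has many near-identical copies in the genome and lacks a poly(A) tail, so its count is uncertain.

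Apc, the scaffold of the complex that degrades beta-catenin, was at 528, 522, 396, 471 and 384 CPM against 603, 604, 678, 573 and 595 CPM. The 2 sets of libraries were separate (0.41, SE 0.10). Daam2, a formin of the Wnt pathway, was separate as well, with 48.4, 45.0, 47.6, 38.9 and 43.4 CPM against 71.0, 53.7, 59.6, 52.2 and 57.6 CPM (0.40, SE 0.10). Ttpa, the transfer protein for vitamin E, was at 5.00 ± 1.04 against 7.46 ± 0.37 CPM (0.58, SE 0.14), and Adamts20, a secreted metalloproteinase, at 9.58 ± 1.23 against 13.4 ± 1.14 CPM (0.49, SE 0.12). Both showed no overlap between groups. Further genes of this set were the RING finger gene rnf141 (0.26, SE 0.07), the zinc finger genes Zfp142 (0.29, SE 0.07) and Zfp526 (0.33, SE 0.10), RGD1565616 (0.30, SE 0.08), Asb14 (0.80 ± 0.10 against 1.57 ± 0.37 CPM, 0.97, SE 0.26) and the calpain protease gene Capn5 (0.24, SE 0.07). Of the 12, Capn5 alone had overlapping groups, in a set picked by p from these same values. Over all genes tested, 0.397% had all 5 labelled libraries above all 5 scrambled ones.

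Depdc1b had the smallest p among genes with a lower mean, of which the 12 of smallest p follow. It is a gene expressed in cycling cells and held 1.10, 3.14, 3.17, 2.47 and 1.54 CPM under scrambled siRNA and 0.55, 1.04, 0.92, 1.17 and 0.78 CPM under the label. Scrambled replicate 5 lay within the labelled range and the others above it (-1.35, SE 0.32). Ncapg, a condensin subunit that compacts mitotic chromosomes, was at 5.93 ± 1.78 against 3.37 ± 0.50 CPM (-0.82, SE 0.22), and Shcbp1, a protein of the midbody, at 4.64 ± 2.21 against 1.91 ± 0.84 CPM (-1.28, SE 0.34). Scrambled replicate 5 was the lowest of its group for both. Chaf1a, the large subunit of the chaperone that deposits histones behind the replication fork, had groups that did not overlap: 15.1, 17.8, 18.8, 17.9 and 16.4 CPM against 14.7, 13.4, 10.8, 15.0 and 12.2 CPM (-0.38, SE 0.11). Cdca7, a chromatin factor of proliferating cells, had a fold change of -0.94 (SE 0.27).

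The other 7 had varied roles. Nop58, a core protein of the particles that methylate ribosomal RNA, was at 33.8, 36.3, 40.1, 43.9 and 33.1 CPM against 30.6, 28.2, 30.5, 32.6 and 30.1 CPM, without overlap (-0.30, SE 0.08). Pa2g4, which binds ribosomes and growth-related RNAs, had a fold change of -0.29 (SE 0.08). Erp29, a chaperone of the endoplasmic reticulum, was at 71.5 ± 8.13 against 56.1 ± 5.03 CPM (-0.35, SE 0.09), and Ssr2, a subunit of the translocon-associated complex, at 58.6 ± 6.19 against 48.3 ± 2.99 CPM (-0.28, SE 0.08). Ahcy, which clears the by-product of methylation reactions S-adenosylhomocysteine, was at 53.5 ± 4.27 against 44.2 ± 3.71 CPM (-0.28, SE 0.07). Groups overlapped for these 4. Clcf1, a cytokine of the interleukin-6 family (-0.74, SE 0.21), and the unnamed locus LOC685067 (-1.32, SE 0.38) completed the 12.

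**Figure D3:**
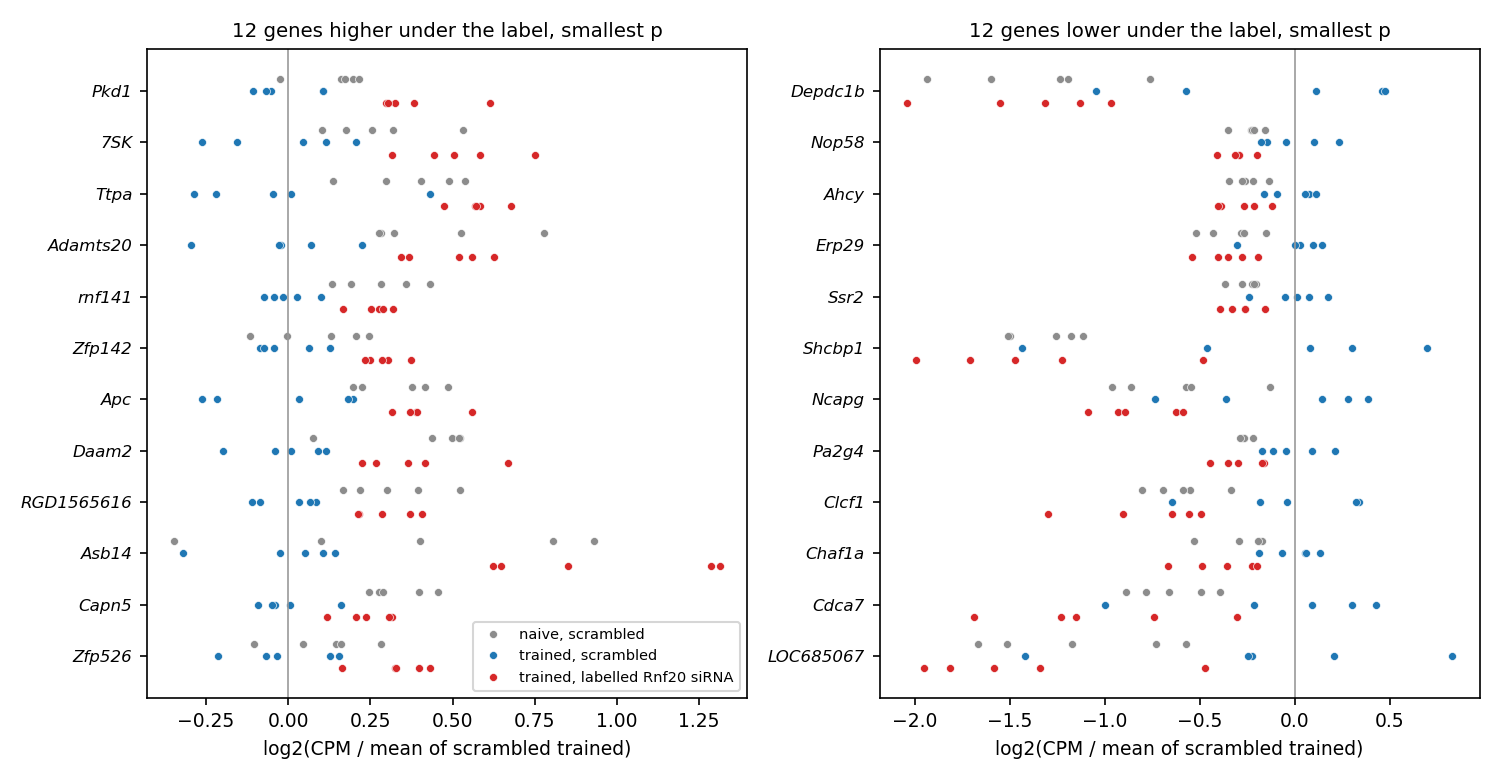
log2 of CPM over the scrambled trained mean for the 12 genes of smallest p with a higher mean (left) and a lower mean (right) under the label, with each library as a point coloured by group. For Pkd1, Apc and Daam2 the labelled points sit wholly to the right of the scrambled trained points, and for Nop58 and Chaf1a wholly to the left.

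Fold changes beyond these were found in genes with large spread or low counts. Lcn2, a secreted protein of inflamed tissue that binds bacterial iron carriers, held 3.0, 4.44, 11.7, 121 and 109 CPM under scrambled siRNA and 1.83, 6.88, 1.5, 7.75 and 9.49 CPM under the label. Scrambled replicates 15 and 16 stood far above all others, and the remaining 3 overlapped the labelled range (-3.18, SE 0.92). LOC299282, an unnamed locus (-2.52, SE 0.86), AC125248.1, also unnamed (-1.74, SE 0.73), and Tnnt3, a troponin gene (-1.72, SE 0.78), were highest in scrambled replicate 15 as well. On the other side Rec114, a meiotic recombination gene, held 0.49, 0.46, 0.41, 0.14 and 0.95 CPM against 0.55, 4.38, 2.83, 2.58 and 0.21 CPM. Of the labelled libraries 3 were high and 2 within the scrambled range (2.11, SE 0.63). The glycine transporter gene Slc6a5 (1.54, SE 0.58) and the potassium channel gene Kcnh5 (1.12, SE 0.41) were highest in labelled replicate 20, at 4.25 and 16.4 CPM. Igfn1, a gene of muscle, was at 1.03 ± 0.87 against 2.24 ± 0.61 CPM (1.12, SE 0.49), and the unnamed locus LOC689081 at 0.68 ± 0.31 against 1.37 ± 0.22 CPM (0.99, SE 0.41).

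Enzymes of the histone marks that H2B ubiquitination acts on had slightly higher means under the label on average, with values that depended on a few libraries. Of 19 genes of the H3K4 and H3K79 methyltransferase complexes, 14 had a fold change above 0 against 50.7% of all genes. The median was 0.13, and 3 had a p under 0.05 with a higher mean against 2.63% of all genes. Kmt2a, an H3K4 methyltransferase known to be needed for memory in mice, held 90.5, 109, 95.8, 99.4 and 61.6 CPM against 119, 115, 111, 118 and 149 CPM. Its groups did not overlap (0.42, SE 0.13), and without the 3 libraries lowest in choroid plexus markers, which hold the lowest and the highest value, it was 0.19. Kmt2d, another H3K4 methyltransferase, was at 176, 189, 197, 186 and 167 CPM against 209, 214, 191, 243 and 254 CPM, with labelled replicate 14 inside the scrambled range (0.28, SE 0.08). Kmt2e had a fold change of 0.20. Dot1l, the H3K79 methyltransferase, had one of 0.13, and the core subunits Wdr5, Rbbp5, Ash2l and Dpy30 ones of -0.09, -0.03, -0.01 and -0.11. The list median was 0.08 without scrambled replicate 16 and 0.04 without the 3 libraries lowest in choroid plexus markers. The count of 3 was 5 without scrambled replicate 6 or 10 or labelled replicate 14, and 1 without the 3 libraries lowest in choroid plexus markers. Higher genes over all genes numbered 392 in the main fit and 555, 543, 457 and 501 in these refits, in the same order.

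The deubiquitinases that remove the H2B mark and their SAGA partners had 11 of 14 fold changes above 0 (median 0.07) against 50.7% of all genes, with 1 higher at p under 0.05 against 2.63%. That gene was Usp36, a nucleolar deubiquitinase, at 29.6 ± 2.55 against 33.5 ± 3.12 CPM (0.18, SE 0.08). Usp22, the catalytic subunit of the module, had a fold change of 0.04, and its activating partner Atxn7l3 was at 89.2 ± 12.9 against 104 ± 13.2 CPM (0.22, SE 0.12). FACT and elongation factors had 11 of 20 above 0 (median 0.01), and 2 with a lower mean at p under 0.05 against 2.98% of all genes. Ssrp1, a subunit of FACT, which moves nucleosomes for the polymerase, was at 108 ± 10.4 against 96.7 ± 3.71 CPM (-0.15, SE 0.07), and Tcea1, which restarts stalled polymerase, at 74.5 ± 2.98 against 67.4 ± 5.81 CPM (-0.14, SE 0.06). H3K27 enzymes and H3K4 demethylases had a median of 0.00 with 6 of 13 above 0. The H3K27 demethylase gene Kdm6b was at 29.8 ± 2.21 against 35.1 ± 3.30 CPM (0.24, SE 0.08), and Rbbp4, a histone-binding subunit of several complexes, at 69.7 ± 8.12 against 60.5 ± 4.5 CPM (-0.20, SE 0.09). Acetyltransferases and deacetylases had 11 of 20 above 0 (median 0.03), with Hdac4 at 35.1 ± 7.25 against 43.9 ± 5.5 CPM (0.32, SE 0.14) and Hdac1 at 40.9 ± 4.95 against 34.6 ± 2.13 CPM (-0.24, SE 0.09).

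Among genes of DNA methylation, all 3 Tet genes, whose enzymes oxidise methylated cytosine, had a higher mean under the label at p under 0.05, against 2.63% of all genes. They were the higher ones at that level in a list of 16, and Uhrf1 was the 1 lower, against 2.98% of all genes. Tet2 held 25.2, 28.1, 29.7, 27.2 and 21 CPM against 30.2, 30.7, 27.6, 35.5 and 34.8 CPM (0.27, SE 0.10), and Tet3 19.2, 20.8, 21.6, 20.5 and 14.5 CPM against 24, 26, 19.8, 25.8 and 22.0 CPM (0.29, SE 0.11). The groups overlapped by labelled replicate 14 in both, and scrambled replicate 16 was the lowest trained library in both. Tet1 had a fold change of 0.43. The methyltransferase genes Dnmt1, Dnmt3a and Dnmt3b stood at -0.17, 0.16 and 0.04, and Uhrf1, which guides maintenance methylation and is also a replication gene, at -0.56. The whole list had 7 of 16 above 0, against 50.7% of all genes, and a median of -0.07.

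Subunits of the 26S proteasome, the complex that degrades ubiquitin-tagged proteins and that is known to be needed for memory consolidation, were slightly lower on average. Of 31 subunits tested, 30 had a fold change below 0 against 49.3% of all genes, and 11 of them had a p under 0.05 against 2.98%. The median was -0.14, the range -0.20 to 0.01, and 0 passed adjustment. Psmc4, an ATPase subunit of the cap, held 80.8, 82.4, 88.7, 90.4 and 88.3 CPM under scrambled siRNA and 74.6, 71.8, 77.5, 73.9 and 77 CPM under the label (-0.20, SE 0.06). Its groups did not overlap. Psmc3, another ATPase of the same ring, held 130, 135, 129, 140 and 139 CPM against 116, 112, 127, 115 and 118 CPM, also without overlap (-0.20, SE 0.06). Psmc5, the subunit with a fold change above 0 and chosen for that, was at 162 ± 22.0 against 163 ± 10.3 CPM (0.01, SE 0.09). The list score was 6.64, 6.62, 6.66, 6.78 and 6.76 against 6.56, 6.49, 6.66, 6.55 and 6.57, with labelled replicate 14 level with the scrambled libraries. Naive libraries lay at 6.52 to 6.63.

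The proteasome median was -0.15 to -0.10 with any 1 library left out. The count of 11 depended on libraries: it was 2 without scrambled replicate 15, 7 without scrambled replicate 16, 4 without labelled replicate 4, 5 without labelled replicate 8, 4 without labelled replicate 20, 5 without the 3 libraries lowest in choroid plexus markers, 4 in the fit of the 10 trained libraries alone, 9 without the 4 libraries at the ends of component 1 and 8 with the microglia covariate. Of all genes, 50.7% were above 0 and 5.61% had a p under 0.05 in the main fit. Lower genes at that level, over all genes, numbered 443 there and 169 without scrambled replicate 15. Without labelled replicate 4, 8 or 20 they numbered 319, 368 and 231, and without scrambled replicate 16 they numbered 437. The trained libraries alone gave 246, the microglia covariate 288, and the fit without the ends of component 1 gave 417. Leaving out the 3 libraries lowest in choroid plexus markers gave 667. Ubiquitin genes and neuronal ubiquitin enzymes had a median of -0.02 with 9 of 24 above 0 and none at p under 0.05. In that list the ligase subunit gene Fbxl20 was at 19.1 ± 3.07 against 22.4 ± 2.08 CPM (0.23, SE 0.11). Cytosolic ribosomal protein genes had 5 of 63 above 0 and a median of -0.09 with none at p under 0.05, and nuclear-encoded oxidative phosphorylation genes 16 of 54 and -0.02 with 1 (Sdhb, -0.15, SE 0.07).

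Genes of mitosis and DNA replication had a lower mean under the label throughout. All 28 tested had a fold change below 0 against 49.3% of all genes, 22 had a p under 0.05 against 2.98% of all genes with a lower mean, the median was -0.91 and the range -1.39 to -0.17. Top2a, the topoisomerase that untangles replicated chromosomes, held 9.01, 45.4, 43.5, 34.2 and 22.2 CPM under scrambled siRNA and 7.09, 14.2, 4.00, 28.8 and 9.63 CPM under the label (-1.27, SE 0.47). Mki67, the proliferation marker Ki-67, held 9.62, 40.7, 38.5, 32.8 and 17.7 CPM against 8.25, 14.0, 8.5, 32.0 and 9.98 CPM (-0.93, SE 0.42). In both genes scrambled replicate 5 was as low as most labelled libraries, labelled replicate 18 was as high as the scrambled ones, and naive libraries held 5.56 to 13.8 CPM of Top2a and 7.01 to 15.5 CPM of Mki67. Top2a and Mki67 were chosen after their values were seen. By the rule for named genes the list gave Mcm4, a subunit of the replicative helicase, at 25.5 ± 1.98 against 20.5 ± 2.26 CPM (-0.31, SE 0.09), and Pcna, the sliding clamp of replication, at 64.3 ± 13.5 against 45.7 ± 10.2 CPM (-0.49, SE 0.15). The mitotic kinase gene Cdk1 had a fold change of -1.39, the cyclins Ccna2 and Ccnb1 of -1.11 and -0.92, and the spindle motor gene Kif11 of -1.14, whereas Tyms, an enzyme of thymidine synthesis, stood at -0.17.

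The mitosis score was 2.48, 3.79, 4.23, 3.85 and 3.34 in the scrambled libraries and 2.18, 2.85, 1.99, 3.73 and 2.53 in the labelled ones, against 2.24 to 2.75 in naive tissue. The count of 22 became 9 without scrambled replicate 10, 13 without labelled replicate 4, 13 without labelled replicate 20 and 12 with the microglia covariate, where the median was -0.56. Without the 4 libraries at the ends of component 1 it was 19, with a median of -0.84. The matching counts over all genes were 443 in the main fit and 280 without scrambled replicate 10. They were 319 and 231 without labelled replicate 4 or 20, 288 with the microglia covariate and 417 without the 4 libraries. Microglia markers also leaned to a lower mean under the label: 14 of their 15 fold changes were below 0, with a median of -0.32. Their part in the result was not tested beyond that covariate.

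Promoters of this list are shown because genes of the cell cycle are known for paired CCAAT boxes, bound by NF-Y, and for the CHR element, bound by the DREAM and MuvB complexes. Windows from 250 bases before to 50 after the start site were read from RefSeq promoters on GRCr8, whereas the counts were made on Rnor_6.0. In the stretches below, each 100 bases long and 5′ to 3′ on the strand of the gene, capitals mark CCAAT on either strand and TTTGAA, the CHR letters, on either strand. The Top2a stretch lies at chr10:84473242-84473341 (minus strand) and the Mki67 stretch at chr1:199952683-199952782 (minus strand).
Top2a: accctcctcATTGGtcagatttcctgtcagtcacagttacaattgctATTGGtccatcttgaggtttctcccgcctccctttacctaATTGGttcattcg
Mki67: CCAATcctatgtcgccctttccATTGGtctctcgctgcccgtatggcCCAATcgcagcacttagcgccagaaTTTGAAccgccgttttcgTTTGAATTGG
The Top2a stretch holds 3 CCAAT matches, and that of Mki67 holds 4 CCAAT and 2 CHR matches, the last of each overlapping by a base. Of the 23 mitosis and replication genes with a promoter in the table, 18 held CCAAT (78.3%) against 38.6% of the 10896 tested genes with one, 12 held TTTGAA (52.2% against 12.4%) and 10 held both (43.5% against 5.10%). These matches describe letters in a window and not sites shown to be bound.

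Interferon-stimulated genes also had a lower mean under the label, with values that depended on a few libraries. All 37 tested had a fold change below 0 against 49.3% of all genes, with a median of -0.83, and 20 had a p under 0.05 against 2.98%. Irf9, the DNA-binding subunit of the factor that type I interferon activates, held 26.2, 39.9, 43.8, 47.4 and 34.4 CPM under scrambled siRNA and 35.1, 23.4, 21.5, 26.9 and 26.5 CPM under the label (-0.52, SE 0.15). Labelled replicate 4 reached the scrambled values and scrambled replicate 5 the labelled ones. Cxcl10, a chemokine that attracts T cells, held 1.23, 2.03, 3.99, 25.0 and 10.6 CPM against 2.10, 2.50, 0.58, 2.58 and 2.48 CPM (-2.06, SE 0.67). Scrambled replicates 15 and 16 were high, and replicates 5 and 6 were not above the labelled group. Mx1, an antiviral GTPase, was at 7.11, 38.7, 67.4, 138 and 47.7 CPM against 45.3, 11.3, 4.58, 10.5 and 11.3 CPM (-1.84, SE 0.74). Rsad2, the antiviral enzyme viperin, was chosen after its values were seen and held 3.86, 10.5, 21.1, 55.4 and 14.0 CPM against 17.3, 7.86, 4.92, 5.47 and 5.59 CPM (-1.34, SE 0.58).

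The interferon score was 2.70, 3.65, 4.53, 5.16 and 3.96 in scrambled libraries and 4.01, 3.21, 2.53, 3.34 and 2.97 in labelled ones, against 2.47 to 3.66 in naive tissue. Its count of 20 became 2 without scrambled replicate 15, where the median was -0.44. It was 9 without scrambled replicate 10, 10 without labelled replicate 8, 6 without labelled replicate 14, 6 without labelled replicate 20, 32 without labelled replicate 4 and 37 without scrambled replicate 5. limma-voom gave 4, and the fit of the 10 trained libraries alone gave 12. Without the 4 libraries at the ends of component 1 the count was 0 and the median 0.01 in the remaining 6 libraries. With the microglia covariate the count was 1 and the median -0.50. Over all genes, lower ones at p under 0.05 numbered 443 in the main fit and 169 without scrambled replicate 15. They numbered 319 without labelled replicate 4 and 859 without scrambled replicate 5. Without the 4 libraries at the ends of component 1 they numbered 417, and with the microglia covariate 288.

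Promoters of this list are shown for the interferon-stimulated response element, whose core reads GAAANNGAAA and which the complex holding IRF9 binds. The Cxcl10 stretch lies at chr14:15988816-15988915 (plus strand) and the Rsad2 stretch at chr6:48788213-48788312 (minus strand), both on GRCr8 from RefSeq, with the match on either strand in capitals.
Cxcl10: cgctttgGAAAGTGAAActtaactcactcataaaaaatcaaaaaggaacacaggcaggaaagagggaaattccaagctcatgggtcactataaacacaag
Rsad2: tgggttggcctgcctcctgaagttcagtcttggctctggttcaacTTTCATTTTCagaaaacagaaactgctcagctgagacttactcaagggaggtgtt
Of 28 interferon-stimulated genes with a promoter in the table, 20 held the core in their 300-base window (71.4%), against 341 of 10896 tested genes (3.13%) and 0 of the 23 mitosis and replication genes. The windows describe the genes of the list, whose members were known interferon targets to begin with.

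Antigen presentation, complement and injury genes leaned the same way with wide spread. All 21 MHC and antigen presentation genes had a fold change below 0 (median -0.50) against 49.3% of all genes, and 6 were at p under 0.05 against 2.98%. Psmb10, an immunoproteasome subunit, held 22.7, 27.3, 35, 37.7 and 35.5 CPM against 25.1, 25.8, 21.4, 27.3 and 22.6 CPM (-0.37, SE 0.13), and Psme2, a proteasome activator subunit, was at 42.0 ± 11.2 against 30.5 ± 6.73 CPM (-0.46, SE 0.17). The other 4 were Tap1, Tapbp, Psmb8 and Psmb9, of the pathway that supplies peptides to class I molecules, with fold changes of -0.81, -0.46, -0.84 and -0.71. The class II genes RT1-Bb, RT1-Ba and RT1-Da stood at -1.14, -0.94 and -0.89 without reaching p under 0.05. The count of 6 was 2 without scrambled replicate 10 or 15, 3 without labelled replicate 20, 13 without scrambled replicate 6 and 14 without labelled replicate 18. It was 1 without the 4 libraries at the ends of component 1 and 0 with the microglia covariate, whose score shares Ctss with this list. Lower genes over all genes numbered 443 in the main fit. Without scrambled replicate 10, 15 or 6 they numbered 280, 169 and 486, and without labelled replicate 20 or 18 they numbered 231 and 1273. The fit without the ends of component 1 gave 417 and the microglia covariate 288.

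Complement genes had 14 of 16 below 0 (median -0.57) against 49.3% of all genes. C3, the central component, held 83.0, 151, 92.1, 267 and 131 CPM against 85.3, 71.2, 67.4, 90.8 and 73.2 CPM (-0.90, SE 0.32), with scrambled replicate 15 the highest. Serping1, the C1 inhibitor, was at 81.8 ± 54.3 against 40.2 ± 20.1 CPM (-1.03, SE 0.47). These were the 2 at p under 0.05, where 2.98% of all genes were lower at that level, a count that ran from 0 without scrambled replicate 15 to 11 without labelled replicate 18. Reactive glia and injury genes had 30 of 34 below 0 (median -0.57) against the same 49.3%. Lower at p under 0.05, against 2.98% of all genes, were 4: Lcn2, Gfap, Ptx3 and S1pr3. Gfap, the intermediate filament of astrocytes, held 3817, 5035, 6348, 6600 and 5564 CPM against 2213, 4251, 2210, 5792 and 3580 CPM (-0.60, SE 0.24), with labelled replicate 18 among the scrambled values. The interleukin gene Il1b was on the other side at 1.10. That count of 4 was 1 without scrambled replicate 15, 2 without scrambled replicate 10 or labelled replicate 4, 14 or 20, 11 without scrambled replicate 5 and 20 without labelled replicate 18, where the median was -1.06. Over all genes, lower ones at that level numbered 443 in the main fit. They numbered 169 without scrambled replicate 15, 859 without scrambled replicate 5 and 1273 without labelled replicate 18. With the microglia covariate the medians were -0.13 for reactive glia and -0.06 for complement. The microglia score shares Trem2, Tyrobp and Ctss with the reactive glia list and C1qa, C1qb and Itgam with the complement list. These medians are therefore not an independent adjustment.

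Blood and leukocyte transcripts also leaned to a lower mean under the label. Hbb, the beta globin, held 72.0, 514, 357, 273 and 153 CPM against 96.5, 223, 71.3, 229 and 62.0 CPM (-1.0, SE 0.46). All 6 blood cell genes were below 0, against 49.3% of all genes, with a median of -1.0, which was -0.54 without scrambled replicate 6. Alas2, of haem synthesis in red cells, was at 7.03 ± 5.05 against 3.53 ± 2.14 CPM. Of 10 leukocyte markers 9 were below 0 (median -0.56), also against 49.3% of all genes. Plac8 was at 16.4 ± 10.2 against 6.04 ± 4.70 CPM (-1.43, SE 0.65) and the border macrophage gene Cd163 at 0.998 ± 0.534 against 0.62 ± 0.20 CPM. The T cell gene Cd3e stood at -0.38 on the log2 scale. Scores were 1.77 to 3.18 in scrambled and 0.63 to 3.02 in labelled libraries for leukocytes, and 3.24 to 6.34 and 2.91 to 4.90 for blood. Among microglia markers, P2ry12 and Cx3cr1, receptors that define microglia, stood at -0.37 and -0.31. Their part in the lower immune and mitosis genes was not tested beyond the covariate above.

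**Figure D4:**
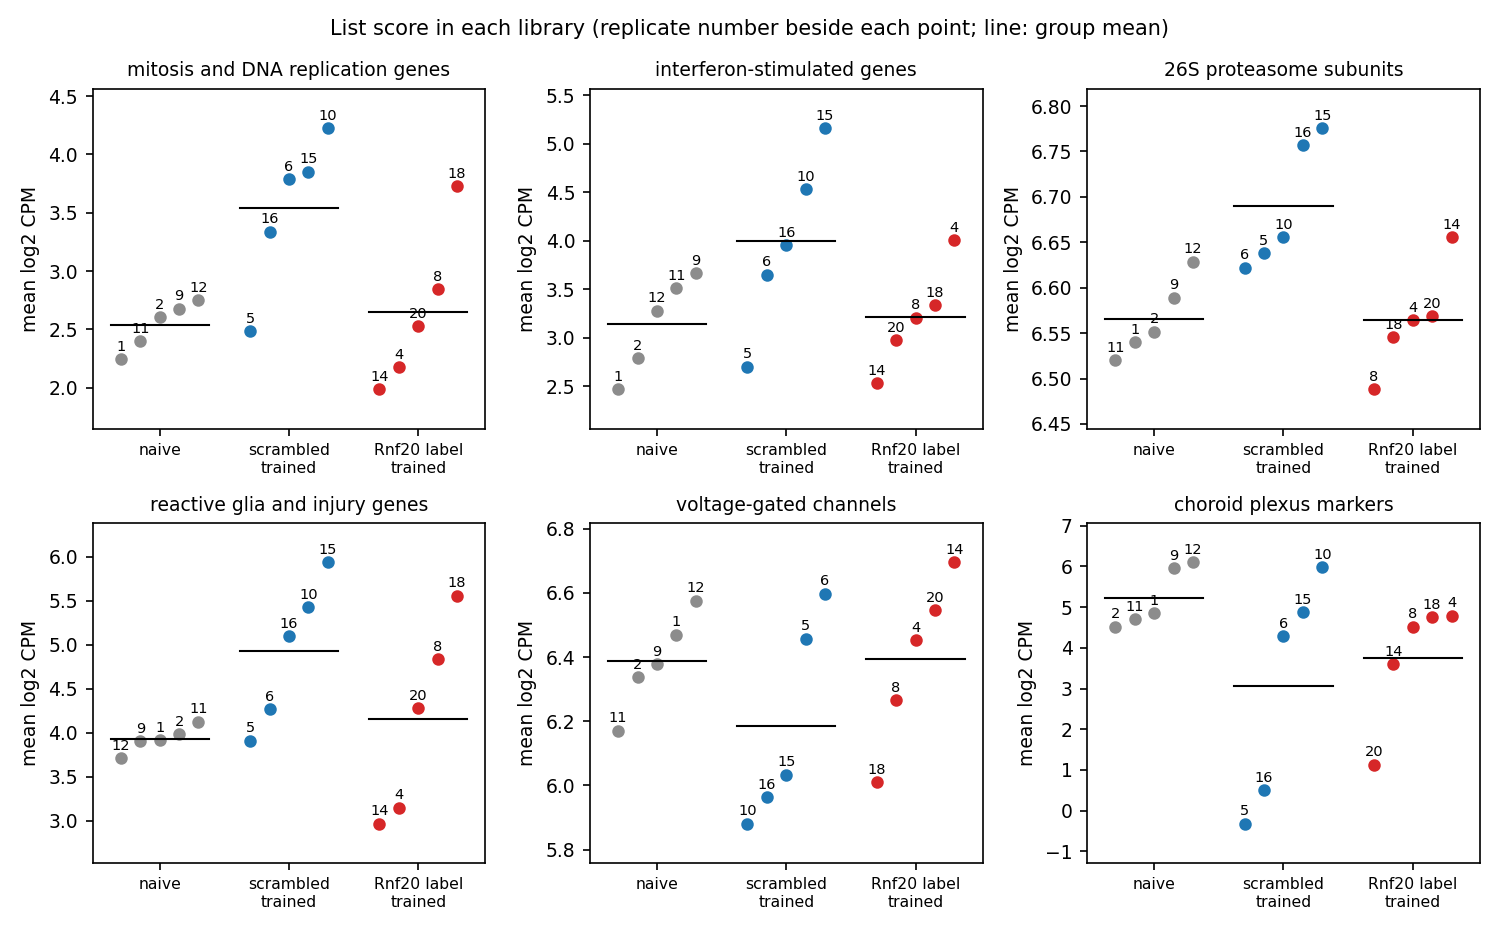
Score (mean log2 CPM of the tested members) of 6 lists in each of the 15 libraries, with the replicate number beside each point and a line for the group mean. Scrambled replicate 5 sits with the labelled libraries for mitosis (2.48) and interferon (2.70), and labelled replicate 18 with the scrambled ones for mitosis (3.73) and reactive glia (5.56).

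Immediate early and activity-induced genes, which neurons switch on during learning, overlapped between the trained groups, though some labelled libraries had lower list scores. The score was 4.21, 4.21, 4.13, 4.36 and 4.18 in scrambled libraries and 4.17, 4.04, 4.01, 4.03 and 4.22 in labelled ones. Labelled replicates 8, 14 and 18 lay below every scrambled library and within the naive range of 3.63 to 4.08. Of 45 tested, 13 had a fold change above 0 against 50.7% of all genes, and the median was -0.09. With a p under 0.05 there was 1, with a lower mean, where 2.98% of all genes were lower at that level. It was Arf4, a GTPase of vesicle traffic, at 146 ± 14.4 against 129 ± 10.9 CPM (-0.18, SE 0.08). Arc, a regulator of AMPA receptor removal, held 188, 172, 85.6, 115 and 152 CPM under scrambled siRNA and 229, 124, 138, 70.4 and 180 CPM under the label (0.06, SE 0.34), a fold change whose sign turned in 4 of the 10 leave-one-out fits and in 2 other fits. Fos was at 17.7 ± 4.45 against 14.9 ± 3.95 CPM (-0.24, SE 0.32), Egr1 at 135 ± 34.9 against 130 ± 56.9 CPM (-0.06, SE 0.29), Npas4 at 4.06 ± 0.87 against 3.71 ± 1.65 CPM (-0.13, SE 0.38) and Bdnf at 21.7 ± 6.51 against 24.1 ± 9.38 CPM (0.15, SE 0.26). Fos, Egr1 and Npas4 encode activity-induced transcription factors and Bdnf a neurotrophin. These genes were chosen after their values were seen. The 95% intervals of their log2 fold changes ran from -0.67 to 0.79 for Arc, -0.92 to 0.43 for Fos, -0.67 to 0.56 for Egr1, -0.93 to 0.67 for Npas4 and -0.40 to 0.70 for Bdnf, and no difference was detectable at this spread. Junb, also an early transcription factor and also picked with its values in view, had levels of 43.9 ± 5.77 against 37.8 ± 2.68 CPM (-0.21, SE 0.13).

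Signalling genes of memory had small fold changes. CREB pathway genes and memory kinases had 21 of 26 above 0 against 50.7% of all genes, with a median of 0.10 and 0 at p under 0.05. In that list the coactivator gene Crtc3 was at 5.87 ± 1.03 against 7.17 ± 0.97 CPM (0.29, SE 0.15), and the kinase gene Camkk2 at 52.0 ± 8.97 against 60.6 ± 9.17 CPM (0.22, SE 0.12). Feedback regulators of ERK had 13 of 17 above 0 (median 0.11). Among them Dusp2, a nuclear phosphatase of ERK, held 1.90, 1.76, 2.76, 2.51 and 2.90 CPM against 2.05, 1.11, 1.00, 1.72 and 1.42 CPM, with labelled replicate 4 inside the scrambled range (-0.68, SE 0.25). Clock genes had 14 of 19 above 0 (median 0.12). Per2, a clock repressor, was at 34.2 ± 6.16 against 41.5 ± 5.83 CPM (0.28, SE 0.12), and Rorb at 13.3 ± 3.10 against 16.8 ± 2.35 CPM (0.34, SE 0.16). Rora, a nuclear receptor of the clock that the rule picked from the thalamic list, was at 2.28 ± 0.46 against 2.92 ± 0.66 CPM (0.36, SE 0.31). Glucocorticoid receptors and responsive genes had 10 of 21 above 0 (median -0.04) and, at p under 0.05, Per2 higher and Lcn2 lower, with the receptor gene Nr3c1 at 0.01 and the metallothionein gene Mt1 at -0.87.

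Chaperone genes leaned to a lower mean. All 18 unfolded protein response genes were below 0 (median -0.15) against 49.3% of all genes, and 2 were at p under 0.05 against 2.98%. Manf, a secreted factor of stressed endoplasmic reticulum, held 43.3, 43.3, 54.2, 58.2 and 45.2 CPM against 40.5, 39.9, 39.8, 47.9 and 39.2 CPM (-0.24, SE 0.09), and Pdia6, a disulfide isomerase, was at 155 ± 17.4 against 134 ± 9.72 CPM (-0.21, SE 0.08). Without scrambled replicate 15 the count was 0 and the median -0.06. The count was 1 without scrambled replicate 10 or labelled replicate 4, 8 or 20, and 4 without scrambled replicate 5 or labelled replicate 18. Lower genes over all genes numbered 443 in the main fit. Without scrambled replicate 15, 10 or 5 they numbered 169, 280 and 859. Without labelled replicate 4, 8, 20 or 18 they numbered 319, 368, 231 and 1273. Heat shock proteins had 23 of 25 below 0 (median -0.06). Hspd1, a mitochondrial chaperonin, held 196, 195, 190, 204 and 184 CPM against 163, 162, 198, 158 and 160 CPM (-0.21, SE 0.08), so that labelled replicate 14 alone reached the scrambled values. Hspa2, a member of the Hsp70 family, was at 29.8 ± 6.59 against 23.6 ± 3.87 CPM (-0.34, SE 0.16). p53 targets had 6 of 18 above 0 (median -0.08), with Zmat3 at 0.33 (SE 0.15) and Gtse1 at -0.32 (SE 0.19), and cholesterol synthesis genes 12 of 21 (median 0.00), with Ebp at -0.26 (SE 0.12) and Sc5d at 0.16 (SE 0.10).

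Synaptic and neuronal genes had slightly higher means under the label. Of all genes, 50.7% were above 0 and 2.63% were higher at p under 0.05. Presynaptic release genes had 34 of 35 above 0 (median 0.19, 4 at p under 0.05), voltage-gated channels 36 of 39 (0.22, 5) and glutamate receptor and postsynaptic density genes 39 of 45 (0.15, 4). GABA receptor genes had 17 of 19 (0.11, 0), synaptic adhesion molecules 23 of 27 (0.11, 2) and pan-neuronal markers 14 of 14 (0.17, 1). Rims1, a scaffold of the active zone where vesicles fuse, held 338, 247, 227, 218 and 236 CPM under scrambled siRNA and 368, 336, 336, 304 and 333 CPM under the label. Scrambled replicate 5 alone lay in the labelled range (0.41, SE 0.12). Its relative Rims2 held 89.2, 64.3, 75.9, 60.4 and 66.6 CPM against 104, 90.4, 86.1, 75.4 and 118 CPM (0.41, SE 0.13). Ptprd, a receptor phosphatase that organises synapses, had groups that did not overlap: 225, 209, 212, 193 and 175 CPM against 273, 226, 231, 228 and 312 CPM (0.33, SE 0.10).

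Among channels, Kcnd3, of the A-type potassium current, was at 49.4 ± 7.46 against 62.5 ± 9.03 CPM (0.34, SE 0.11), and Cacna1d, an L-type calcium channel, at 48.9 ± 8.37 against 60.4 ± 8.20 CPM (0.30, SE 0.12). For glutamate, the metabotropic receptor gene Grm3 was at 102 ± 15.2 against 126 ± 16.3 CPM (0.31, SE 0.11), and the scaffold gene Shank2 at 20.8 ± 5.85 against 26.5 ± 2.88 CPM (0.35, SE 0.16). The AMPA receptor genes Gria1 and Gria2 stood at -0.04 and 0.01 and the NMDA receptor gene Grin1 at 0.06. Dscam, an adhesion molecule, had a fold change of 0.38 (SE 0.15), Elavl3, a neuronal RNA-binding protein, of 0.24 (SE 0.09), and the GABA receptor genes Gabbr2 and Gabrb2 of 0.29 (SE 0.16) and 0.30 (SE 0.22).

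These neuronal values depended on the libraries at the ends of component 1. Without those 4 the medians were 0.10 for presynaptic, 0.02 for channel, -0.01 for glutamate, -0.04 for GABA, 0.00 for adhesion and 0.00 for pan-neuronal genes. With the microglia covariate they were 0.01, 0.02, 0.02, -0.05, -0.05 and -0.08. Without labelled replicate 14 alone the presynaptic median was 0.12, the channel median 0.10 and the glutamate median 0.07. The channel count of 5 was 1 without scrambled replicate 16, 2 without labelled replicate 4, 14 or 20, 3 without scrambled replicate 10 or 15, and 12 without scrambled replicate 6 or labelled replicate 18. The presynaptic count of 4 was 2 without scrambled replicate 16 or labelled replicate 14 and 9 without labelled replicate 18, and the glutamate count of 4 was 1 without scrambled replicate 15 or 16 or labelled replicate 4 or 14 and 9 without scrambled replicate 5. Higher genes over all genes numbered 392 in the main fit. Without scrambled replicates in order they numbered 626, 555, 543, 324 and 304. Without labelled replicate 4, 14, 18 or 20 they numbered 259, 457, 739 and 311.

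Markers of regions and other cell types varied widely within both groups. CA1 markers had 2 of 9 above 0 (median -0.35) against 50.7% of all genes, and the median was 0.13 without scrambled replicate 6. Man1a1 was at 48.2 ± 17.2 against 37.1 ± 5.01 CPM (-0.38, SE 0.22), and Zbtb20, a transcription factor of hippocampal pyramidal cells, at 31.3 ± 15.1 against 43.3 ± 12.0 CPM (0.47, SE 0.31). CA3 markers had 11 of 12 above 0 (median 0.23), with the proteoglycan gene Spock1 at 78.9 ± 8.93 against 99.7 ± 21.3 CPM (0.34, SE 0.14) and the potassium channel gene Kcnq5 at 0.32 (SE 0.14). That median was 0.03 without labelled replicate 14. Dentate granule markers had 7 of 10 above 0 (0.10) and interneuron markers 11 of 18 (0.06). Neocortical markers had 6 of 7 above 0 (0.33), with Cux2, of upper cortical layers, at 41.4 CPM in labelled replicate 20 and 18.3 to 30.4 CPM in the other trained libraries (0.49, SE 0.18), and without that replicate the median was -0.03.

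Striatal markers had 1 of 9 above 0 (median -0.51) against 50.7% of all genes. Penk, the enkephalin gene, was at 18.0, 16.8, 183, 16.1 and 24.9 CPM against 60.8, 27, 16.3, 38.9 and 24.4 CPM. Scrambled replicate 10 stood alone, and without it the striatal median was 0.87. Choroid plexus markers had 12 of 13 below 0 (median -0.29), which became 0.55 without scrambled replicate 10. Aqp1, a water channel of that tissue, ran from 0.43 to 91.4 CPM in scrambled and from 1.20 to 23.9 CPM in labelled libraries. Oligodendrocyte markers had 13 of 15 above 0 (median 0.10). The connexin gene Gjc3 was at 19.7 ± 5.02 against 26.2 ± 5.35 CPM (0.41, SE 0.16) and the myelin gene Opalin at 198 ± 52.1 against 252 ± 42.3 CPM (0.35, SE 0.17). Without the 4 libraries at the ends of component 1 that median was 0.42 with 9 higher at p under 0.05. In that fit 629 of all genes were higher at that level. Medians near 0 were found for markers of astrocytes (9 of 14 above 0, median 0.05), oligodendrocyte precursors (6 of 8, 0.02), endothelium (3 of 10, -0.02), ependyma (5 of 9, 0.02) and meninges (4 of 8, -0.04). Thalamic and habenular markers had 6 of 7 above 0 (0.09). Pericyte and vessel wall markers had 7 of 10 above 0 (median 0.13), but Tagln, of smooth muscle, held 26, 153, 275, 62.3 and 103 CPM against 22.4, 37.8, 20.4, 99.2 and 28.5 CPM (-1.57, SE 0.52), with wide overlap.

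**Figure D5:**
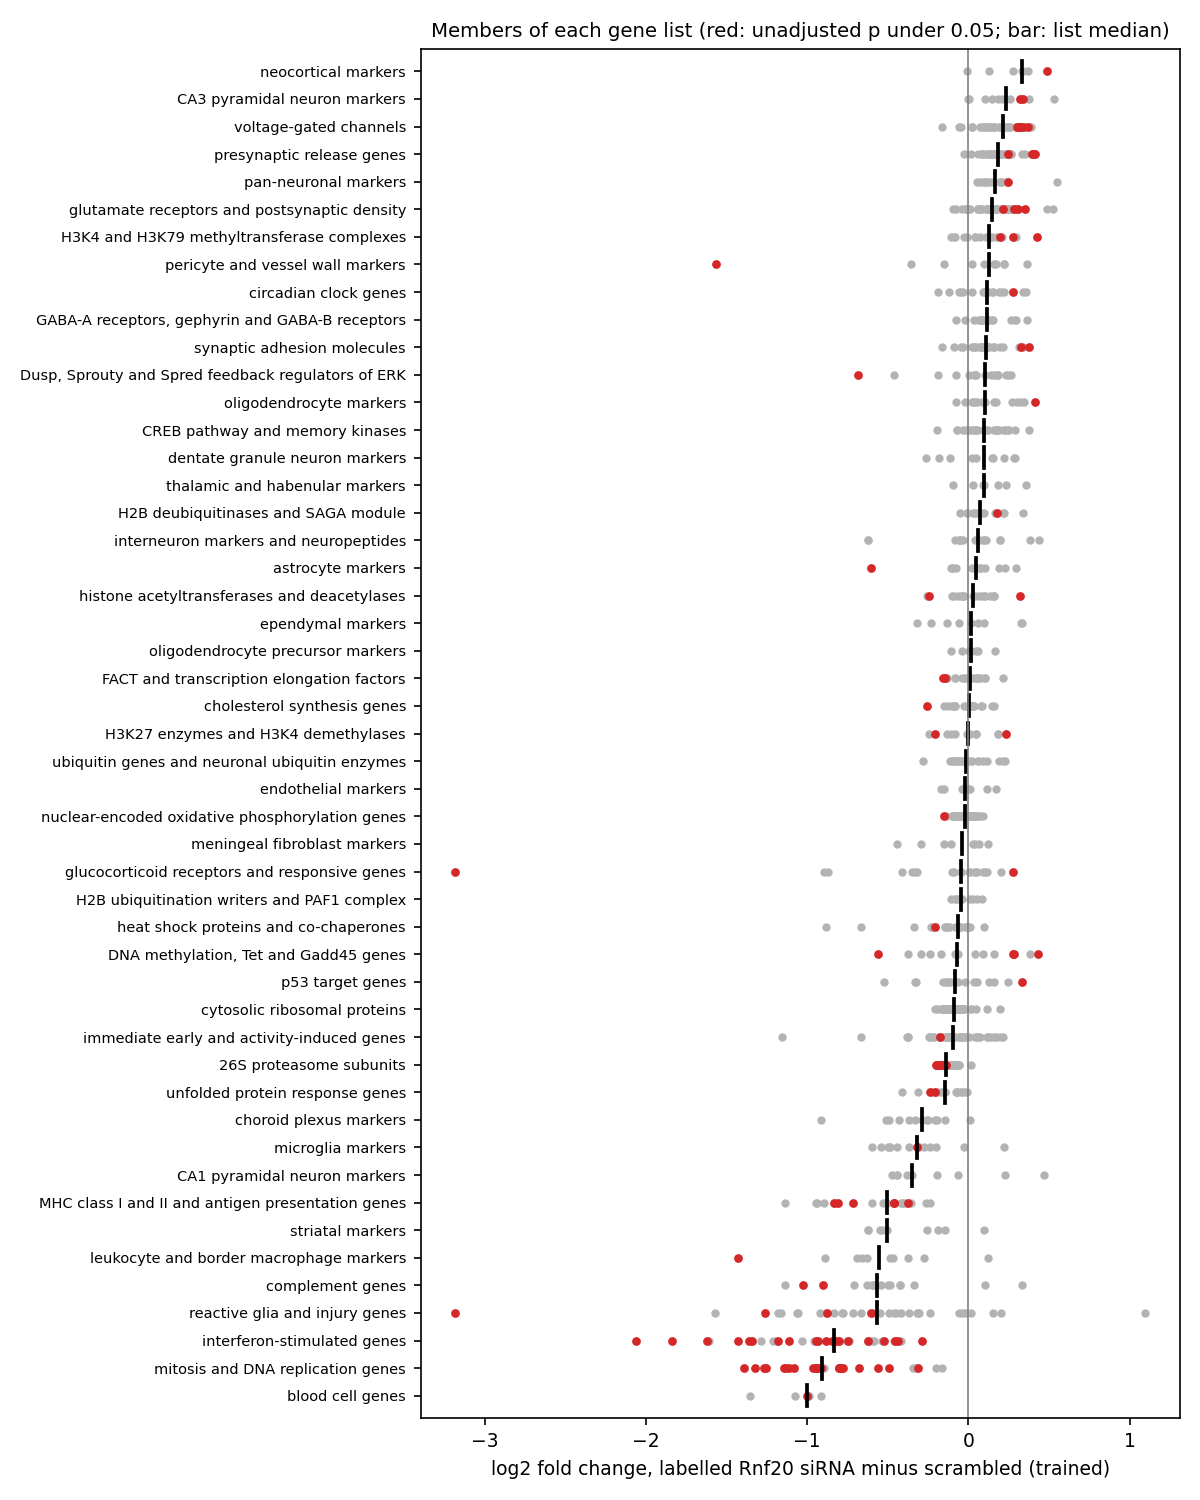
log2 fold change (labelled minus scrambled, trained) of every tested member of the 49 gene lists, ordered by list median, with members at an unadjusted edgeR p under 0.05 in red and the median as a bar. Blood, mitosis and interferon lists have the lowest medians (-1.0, -0.91 and -0.83), and the list of H2B ubiquitination writers lies at -0.05.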

How the data were processed

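Per the submitters' processing notes, the authors used Trim Galore, FastQC, featureCounts 2.0.1 and DESeq2 with the assembly Rnor_6.0; for aligner, annotation release and strand setting: not given in the sources used here. Per the labels' protocols, mRNA libraries were stranded and amplified by 14 PCR cycles. The deposited table holds raw read counts per gene, per the file headers, and a deposited normalised table was not used. Of 22314 genes, 399 had no count and 14880 passed filterByExpr (99.9% of counts). Tools were edgeR 4.0.16, DESeq2 1.42.0 and limma 3.58.1, run in R 4.3.3. The edgeR quasi-likelihood F test (robust, TMM scaling, all 15 libraries, 12 residual degrees of freedom) gave labelled minus scrambled trained, with Benjamini-Hochberg adjustment over all genes tested and a threshold of 0.05; scripts were tested on simulated data. CPM are mean ± SD with n = 5 per group, and list scores use a prior count of 2.

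The comparison, the 49 gene lists and the rule for named genes were chosen with earlier results of these data known. The rule names Rnf20 and the tested writer genes, the 12 higher and 12 lower genes of smallest p and the 6 and 6 of largest change at an unadjusted p under 0.05 (mean of at least 1 CPM), and 2 members of smallest p per list; genes outside it are marked as chosen with their values in view, or are given as list members by fold change. Of 1048 listed genes 966 were tested. Alternatives were DESeq2, limma-voom, median-ratio scaling, no filter, 1 CPM in 5 libraries, the 10 trained libraries alone and each trained library left out. Chosen after seeing the data were leaving out the 4 libraries at the ends of component 1 (scrambled 10 and 15, labelled 14 and 18) or the 3 of lowest choroid plexus score, and a microglia or choroid plexus score as a covariate.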

Additional observations from a re-analysis of the deposited data

Results flagged for a closer look

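Single libraries stood far from the other 4 of their group for 21 of 392 groups of values examined (gap over range on the log2 scale, Dixon's 95% value for 5), where chance flags about 1 in 20. Genes not flagged can still have 1 library far off in CPM, such as Kcnh5 at 16.4 CPM in labelled replicate 20. Scrambled replicate 10 had 6 of them: Penk at 183 CPM (others 16.1 to 24.9), Tac1, another striatal peptide gene, at 24.7 CPM (3.43 to 5.26), Rtf1 at 68.8 CPM (83.7 to 90.1), Ube2a at 52.7 CPM (58.4 to 59.7), the striatal score at 6.19 (2.93 to 3.40) and the meningeal score at 3.86 (2.69 to 3.01). Scrambled replicate 16 was low for Rnf40 at 39.0 CPM (42.3 to 43.5), Fbxl20 at 13.8 CPM (19.7 to 21.7) and the H3K4 and H3K79 methyltransferase score at 5.39 (5.61 to 5.69). Scrambled replicate 15 was high for Arf4 at 171 CPM (136 to 142), and scrambled replicate 5 for Rims1 at 338 CPM (218 to 247).

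Labelled replicate 14 had 5: Ctr9 at 88.5 CPM (67.3 to 70.9), Cxcl10 at 0.58 CPM (2.10 to 2.58), Hspd1 at 198 CPM (158 to 163), the H2B deubiquitinase score at 5.24 (5.02 to 5.08) and the pericyte score at 3.47 (3.87 to 4.03). Labelled replicate 18 had 3: Manf at 47.9 CPM (39.2 to 40.5), Rtf1 at 68.6 CPM (90.0 to 98.6) and the acetyltransferase and deacetylase score at 5.22 (5.33 to 5.35). Labelled replicate 20 was high for Kmt2a at 149 CPM (111 to 119) and Pkd1 at 203 CPM (163 to 173).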

How the results depend on the processing

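No gene was lower at an adjusted p under 0.05 in any of the 20 alternatives, and none was higher except by DESeq2, which called 1. No paired analysis was possible because the groups share no replicate numbers. Rnf20 stayed within -0.090 to 0.0017 with 1 library left out, the upper end without scrambled replicate 6. Signs turned for some named genes, and the cause was not tested. With limma-voom the log2 fold changes were Aqp1 0.26, Penk 0.082 and Arc -0.000348. Without the 4 libraries at the ends of component 1 they were Aqp1 1.17, Cdc73 0.084, Folr1 0.77, Penk 0.90, Tac1 0.40, Wac -0.041, Fos 0.0051, Bdnf -0.083, Psmc5 -0.049 and Rsad2 0.11. Without the 3 libraries lowest in choroid plexus markers they were Emcn 0.20, Gpr17 -0.18 and Rnf40 -0.037. With the microglia covariate they were Leo1 -0.067, Rtf1 -0.0030, Wac -0.057, Arc -0.43, Bdnf -0.14 and Psmc5 -0.049, and with the choroid plexus covariate Egr1 0.030. With 1 library left out, they ran from -1.24 to 0.55 for Aqp1, -0.15 to 0.23 for Arc, -0.078 to 0.28 for Bdnf, -0.14 to 0.022 for Cdc73, -0.24 to 0.11 for Egr1, -0.82 to 0.21 for Folr1, -0.032 to 0.13 for Leo1, -0.29 to 0.039 for Npas4, -0.95 to 0.83 for Penk, -0.024 to 0.097 for Psmc5, -0.015 to 0.038 for Rnf40, -0.85 to 0.37 for Tac1 and -0.025 to 0.085 for Wac. No other of the 147 genes picked by the rule or with their values in view turned its sign in these fits. For genes given only as list members by fold change, the sign was not followed across the fits. The median over all genes stayed between -0.0087 and 0.0079. At this spread, the 95% interval lay within 1.5-fold for 67.3% of genes.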
